A study of Mus musculus with 12 samples.

Results

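The 47 genes described here are a list of mitotic and G2/M genes, followed in hematopoietic stem cells sorted from Osmr-/- and wild-type mice. Each was found by its symbol in the normalised count table, which holds 43279 genes, and all 47 were tested. By role they were 11 kinetochore and centromere genes, 14 spindle genes, 7 cyclin, CDK and CDK-activating genes, 4 genes around the anaphase-promoting complex (APC) and 5 cytokinesis genes. The other 6 act on chromosome structure and fall under none of those roles. Osmr encodes the receptor subunit through which oncostatin M signals, and the question asked of these libraries was how its loss changed RNA in the stem cell gate. The Osmr-/- group had 5 libraries, numbered 1, 2, 3, 5 and 6, and the wild-type C57BL/6 group had 6, each library from a different naive adult mouse. The labels name no allele, age, sex or genetic background of the Osmr-/- mice, and the library numbered 4 of that genotype was not analysed here. Marrow of leg and hip bones was enriched for KIT, and 1000 lineage-negative, KIT+, SCA-1+, FLT3- and CD48- cells were sorted from each mouse. CD150 was stained but is not part of the gate the labels list.

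A cell entering mitosis raises the activity of CDK1 bound to A- and B-type cyclins. Kinetochores then form on centromeric chromatin and attach to spindle microtubules, and a checkpoint holds the APC back until attachment is complete, after which the APC degrades cyclin B and the cell divides. Transcripts of these genes accumulate from late S phase to mitosis and are low in resting cells, and most adult stem cells of the marrow rest outside the cell cycle. In libraries made from sorted pools, fewer dividing cells and less mitotic RNA per cell cannot be told apart.

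Library totals ran from 9.50 M to 11.2 M reads in Osmr-/- and from 9.89 M to 22.1 M in wild type. Osmr itself had 4 reads summed over the 5 Osmr-/- libraries and 13 over the 6 wild-type libraries, too few to check the labels. Kit (3666 to 5183 normalised counts in Osmr-/-, 3312 to 4512 in wild type) and Ly6a, which encodes SCA-1, were high in every library, and Cd3g, Il7r and Rag1 had no read in any. In both genotypes the libraries numbered 1 to 3 stood apart from those numbered 4 to 6, for which the labels give no reason. The nuclear RNA Malat1 had 9975 to 109658 normalised counts in numbers 1 to 3 and 130004 to 230983 in numbers 4 to 6. Each genotype difference is therefore also given within the number sets, which held 3 Osmr-/- and 3 wild-type libraries (1 to 3) and 2 Osmr-/- and 3 wild-type libraries (4 to 6).

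Most of the mitotic genes had lower values in Osmr-/- than in wild-type cells, but none passed the threshold for its own test. The log2 fold change (Osmr-/- over wild type) was below 0 for 42 genes and above 0 for 5, with a median of -0.75. Over all 13358 genes tested, 53.2% lay below 0 and the median was -0.05. In limma, adjusted over all genes, 0 mitotic genes passed 0.05, a level that 0.015% of all genes reached as lower and 0.00749% as higher. Without adjustment, 20 of the 47 (42.6%) had p under 0.05 as lower and 0 as higher, where all genes gave 10.5% and 7.5%. The 20 include Cdc25c, which was tested only because of its level in wild type. The 47 genes share the same 11 libraries and are not independent of each other. They were also chosen with earlier results of these data known, so their excess over all genes is a description and not a test.

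The lowest adjusted p belonged to Cenpa, Ccnb2 and Hmmr, a centromeric histone, a B-type cyclin and a spindle protein. Only Cenpa and Kif23 had every Osmr-/- library below every wild-type library (2 of 47, or 4.26%, against 1.42% of all genes), and 0 had the opposite order (1.09% of all genes). For 18 genes (38.3%) all 5 Osmr-/- libraries lay below the wild-type median, against 15.1% of all genes. Leaving out 1 library turned the sign of the log2 fold change or moved it by over 1.5 times for 26 of the 47, and for the other 21 no single library did. A fit with the number sets as a covariate called Ccnb2, Cenpa and Nuf2 lower and 0 higher, where 1.53% of all genes were called lower and 0.996% higher. That count was 0 when any of 8 libraries was left out (Osmr-/- 1, 2, 3 or 6, or wild type 1, 2, 4 or 5), 2 without wild type 3, 7 without wild type 6 and 10 without Osmr-/- 5. Calls over all genes were not counted in these leave-outs, so the counts cannot be set against an all-gene share.

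DESeq2 on the reads recovered from the table called 5 lower (Ccnb2, Cdca3, Cenpa, Hmmr and Nuf2) and 0 higher, with 2.83% and 1.53% of all genes called. Ccnb2 and Cenpa were called with any 1 of the 11 libraries left out, and the count ran from 3 to 13, the highest without Osmr-/- 5. Here too the all-gene share in each leave-out was not counted. In the authors' deposited table, also from DESeq2, the same 5 genes were lower and 0 higher, with 2.79% and 1.67% of all genes called. EdgeR's quasi-likelihood test called 0 mitotic genes, with 15 (31.9%) lower and 0 higher at an unadjusted p under 0.05, against 8.77% and 6.66% of all genes.

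**Figure D1:**
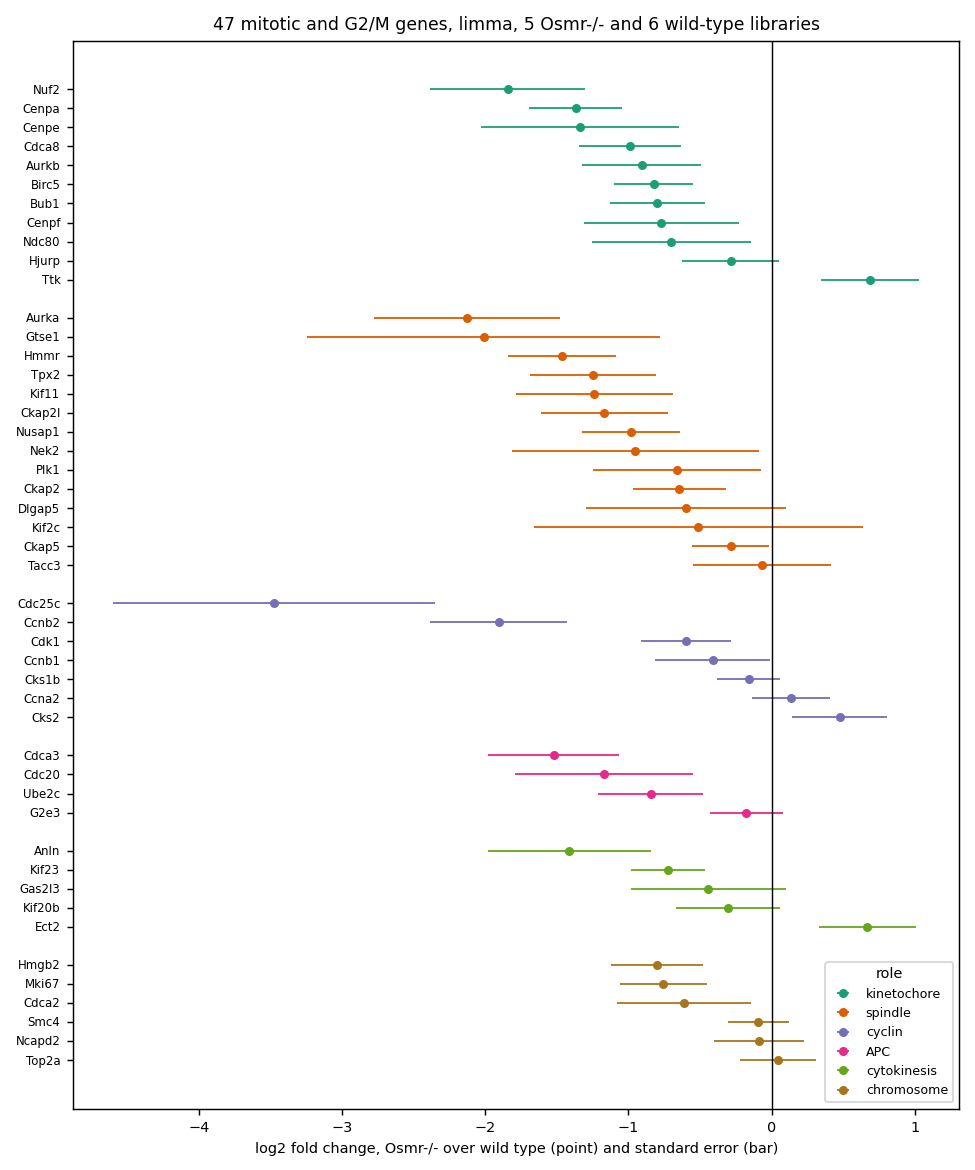
Log2 fold change (Osmr-/- over wild type, limma on log2(normalised count + 1)) of each of the 47 genes, grouped by role, with the point at the estimate and the bar at 1 standard error; n = 5 Osmr-/- and 6 wild-type libraries. Of the 47 points, 42 lie left of 0, from -3.47 for Cdc25c, and 5 lie right of it, up to 0.69 for Ttk.

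Many promoters of mitotic genes carry a CHR element, TTTGAA, near the start of transcription, where complexes of the MuvB core bind, and CCAAT boxes, which bind NF-Y. To show the sequence that genes of this list share, the promoters of Ccnb2, Cenpa and Hmmr, the 3 of lowest adjusted p, are printed beside that of Ttk, the gene of highest log2 fold change. Each runs from 150 bases before to 30 after the RefSeq start on the gene's own strand, 5′ to 3′ (GRCm38.p6), with every TTTGAA and CCAAT, or its reverse complement TTCAAA or ATTGG, in capitals. The windows are chr9:70421525-70421704 for Ccnb2 (minus strand), chr5:30666736-30666915 for Cenpa (plus), chr11:40733408-40733587 for Hmmr (minus) and chr9:83834539-83834718 for Ttk (plus). For Cenpa the RefSeq start lies downstream of the start of the GENCODE gene span.
Ccnb2: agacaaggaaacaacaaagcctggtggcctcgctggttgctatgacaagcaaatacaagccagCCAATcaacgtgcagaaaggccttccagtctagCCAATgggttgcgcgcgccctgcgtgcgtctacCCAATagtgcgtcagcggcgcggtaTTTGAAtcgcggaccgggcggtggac
Cenpa: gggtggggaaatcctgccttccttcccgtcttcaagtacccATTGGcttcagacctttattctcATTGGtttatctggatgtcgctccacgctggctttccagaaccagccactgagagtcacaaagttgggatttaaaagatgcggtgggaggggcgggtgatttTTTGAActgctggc
Hmmr: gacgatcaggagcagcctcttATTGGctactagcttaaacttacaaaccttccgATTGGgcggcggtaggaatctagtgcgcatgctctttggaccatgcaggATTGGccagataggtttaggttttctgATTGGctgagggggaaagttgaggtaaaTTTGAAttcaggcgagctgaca
Ttk: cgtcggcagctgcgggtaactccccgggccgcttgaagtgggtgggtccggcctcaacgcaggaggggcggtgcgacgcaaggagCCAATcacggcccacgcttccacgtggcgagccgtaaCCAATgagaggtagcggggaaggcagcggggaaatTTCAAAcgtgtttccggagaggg
In each window a TTTGAA or TTCAAA lay just after the start, beginning at base 5 in Ccnb2, 17 in Cenpa, 9 in Hmmr and 8 in Ttk. No CCAAT match overlapped a TTTGAA match in these windows. Of the 47 genes 40 had a promoter in the RefSeq table, which spans 250 bases before to 50 after the start. TTTGAA on either strand was in 28 of the 40 (70.0%), against 18.1% of all 27025 promoters, and within 50 bases of the start in 60.0%, against 4.92%. CCAAT on either strand was in 77.5%, against 37.9%, and TTTGAA together with CCAAT was in 60.0%, against 7.12%. The median log2 fold change was -0.74 for the 28 genes with TTTGAA and -0.81 for the 12 without it. A match describes these letters in this window, not a site in use.

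Kinetochore and centromere genes had a median log2 fold change of -0.82, with 10 of 11 below 0. Cenpa (chr5:30666777-30674830, plus strand), the histone H3 variant that marks centromeres, had 584, 859.7, 366, 893 and 489.9 normalised counts in Osmr-/- libraries 1, 2, 3, 5 and 6. In wild type its lowest, median and highest counts were 939, 1583 and 2869. All 5 Osmr-/- libraries lay below all 6 wild-type libraries, with a log2 fold change of -1.37 ± 0.32 (SE) and an adjusted p of 0.0824 by limma. Its loading factor Hjurp had 675, 575, 1039, 1148 and 1193 in Osmr-/-, against 523, 1169 and 1868 in wild type. Here the groups overlapped widely, and the wild-type libraries numbered 1 to 3 were the lower ones (a log2 fold change of -0.28 ± 0.34 (SE) and an adjusted p of 0.693 by limma). Leaving out 1 library gave Hjurp -0.49 to -0.13.

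Nuf2 and Ndc80 encode partner subunits of the complex that grips spindle microtubules. Nuf2 (chr1:169497934-169531464) had 101, 197, 151, 125 and 40.0 normalised counts in Osmr-/-, against a lowest, median and highest of 95.1, 448 and 941 in wild type. The groups overlapped through wild type 6, the lowest of its group, while the other 5 wild-type libraries lay above every Osmr-/- library. The fit gave a log2 fold change of -1.84 ± 0.54 (SE) and an adjusted p of 0.129 by limma. Without wild type 6, Nuf2 was the 1 mitotic gene that passed in limma, with an adjusted p of 0.0389. Ndc80 averaged 286 ± 248 in Osmr-/- and 344 ± 116 in wild type (SD, n = 5 and 6), with Osmr-/- 3 the highest of all 11 libraries and a log2 fold change of -0.70 ± 0.56. It was -1.13 without Osmr-/- 3 and -0.21 without Osmr-/- 6. Pseudogenes of at least 90% identity to part of the Ndc80 transcript could share its reads.

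Birc5 (survivin), Cdca8 (borealin) and Aurkb (Aurora B) encode members of the chromosomal passenger complex, which corrects faulty attachments, and all had means below those of wild type. Birc5 had 1086, 1255, 1047, 2149 and 725 normalised counts in Osmr-/-, against 1317, 2127 and 2893 (lowest, median, highest) in wild type. Osmr-/- 5 lay within the wild-type range and the other 4 below it, with a log2 fold change of -0.82 ± 0.28 (SE) and an adjusted p of 0.156 by limma. Cdca8 averaged 344 ± 113 in Osmr-/- and 710.5 ± 280.3 in wild type, with a log2 fold change of -0.99 ± 0.36. Aurkb averaged 148 ± 56.1 and 299 ± 173 in the same order, with -0.91 ± 0.42. Every Osmr-/- library lay below the wild-type median for both genes, and the ranges overlapped.

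The checkpoint kinases did not share a direction. Bub1 averaged 190.2 ± 75.4 normalised counts in Osmr-/- and 321 ± 93.1 in wild type, with 4 of 5 Osmr-/- libraries below every wild-type library and a log2 fold change of -0.80 ± 0.33 (adjusted p 0.235, limma). Ttk, the kinase MPS1, was chosen for description after its values were seen. It had 169, 170.3, 239.7, 237 and 304 in Osmr-/-, against 91.0, 147 and 192 in wild type. All 5 Osmr-/- libraries lay above the wild-type median, with overlap at the low end of Osmr-/- and a log2 fold change of 0.69 ± 0.34 (SE) and an adjusted p of 0.306 by limma. The kinetochore motor gene Cenpe (-1.34 ± 0.69) and the kinetochore gene Cenpf (-0.77 ± 0.54) had overlapping groups, and Cenpe in Osmr-/- ran from 27.1 to 772. The log2 fold change of Cenpe was -0.61 without Osmr-/- 3, and that of Cenpf was -0.49 without wild type 5.

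All 14 spindle genes lay below 0 (median log2 fold change -0.97), against 53.2% of all genes. Of them 6 (42.9%) had an unadjusted limma p under 0.05, against 10.5% of all genes as lower. Within numbers 4 to 6, 8 of the 14 lay below 0. Hmmr (chr11:40701395-40733422, minus strand), a microtubule-binding protein of the spindle poles, had 229.9, 278, 218, 445 and 86.8 normalised counts in Osmr-/-, against 411, 645 and 951 in wild type. Osmr-/- 5 lay just inside the wild-type range and the other 4 below it, with a log2 fold change of -1.46 ± 0.38 (SE) and an adjusted p of 0.104 by limma. Aurka, the kinase Aurora A of spindle poles, had 85.0, 17.7, 20.6, 145 and 15.6 in Osmr-/-, against 63.5, 193 and 323 in wild type. Every Osmr-/- library lay below the wild-type median, 3 of them below every wild-type library, with a log2 fold change of -2.13 ± 0.65 (SE) and an adjusted p of 0.135 by limma. Tpx2, which activates Aurora A on microtubules, averaged 273 ± 284 in Osmr-/- and 493 ± 139.9 in wild type. Osmr-/- 5 held the highest of all 11 values and the other 4 Osmr-/- libraries lay below every wild-type library, with a log2 fold change of -1.25 ± 0.44.

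Nusap1, which bundles spindle microtubules, had 246, 387, 456, 843 and 704 normalised counts in Osmr-/-, against 593, 955 and 1593 in wild type. Its Osmr-/- libraries all lay below the wild-type median, and those numbered 5 and 6 fell within the wild-type range, with a log2 fold change of -0.98 ± 0.34 (SE) and an adjusted p of 0.169 by limma. Tacc3, which with Ckap5 stabilises kinetochore fibres, had 325, 103, 219, 275 and 176 in Osmr-/-, against 84.8, 246 and 485 in wild type. Its groups covered much the same range, with a log2 fold change of -0.07 ± 0.48 (SE) and an adjusted p of 0.958 by limma, and its sign changed in 8 of the alternatives run. Ckap5 had a log2 fold change of -0.29 ± 0.27.

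Among the spindle motors, Kif11, the kinesin that pushes spindle poles apart, averaged 307 ± 288 in Osmr-/- and 514 ± 189 in wild type, with a log2 fold change of -1.24 ± 0.55 (adjusted p 0.257, limma) that was -0.81 without Osmr-/- 2. The microtubule depolymerase gene Kif2c averaged 89.5 ± 75.8 in Osmr-/- and 78.2 ± 65.8 in wild type, had no read in Osmr-/- 1, and its log2 fold change of -0.51 ± 1.15 became 0.82 without that library. The kinase genes Plk1 (-0.66 ± 0.59) and Nek2 (-0.95 ± 0.86) had overlapping groups, and Nek2 stood at 1 read in Osmr-/- 1 and at a log2 fold change of 0.033 without it. Ckap2l (-1.17 ± 0.44), Ckap2 (-0.64 ± 0.33) and Dlgap5 (-0.60 ± 0.70), which bind spindle microtubules, were lower on average and overlapped. Leaving out 1 library gave Plk1 -1.09 to -0.36, Ckap2 -0.84 to -0.38 and Dlgap5 -1.20 to -0.26. Gtse1, a microtubule regulator, reached 10 normalised counts in 2 of 5 Osmr-/- and 5 of 6 wild-type libraries, so it was tested only because of its level in wild type (-2.01 ± 1.23).

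The cyclin and CDK genes were uneven, with 5 of 7 below 0 and a median log2 fold change of -0.41. Ccnb2 (chr9:70407692-70421547, minus strand) encodes cyclin B2, a partner of CDK1. It had 291, 500.2, 231, 976 and 311 normalised counts in Osmr-/-, against 655, 1701 and 3212 in wild type. Osmr-/- 5 lay within the wild-type range and the other 4 below it, and wild type 1 to 3 were far above the remaining libraries. The fit gave a log2 fold change of -1.91 ± 0.48 (SE) and an adjusted p of 0.0967 by limma. Its paralogue Ccnb1 averaged 298 ± 93.3 in Osmr-/- and 438 ± 211 in wild type, with a log2 fold change of -0.41 ± 0.40 (-0.72 to -0.26 with 1 library left out), and has pseudogenes of at least 90% identity.

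Cdk1, the kinase that drives mitotic entry, had 802, 951, 472, 717 and 1173 normalised counts in Osmr-/-, against 762, 1239 and 1921 in wild type. All Osmr-/- libraries lay below the wild-type median, 2 of them below every wild-type library, and wild type 1 to 3 were the highest, with a log2 fold change of -0.60 ± 0.31 (SE) and an adjusted p of 0.334 by limma. Ccna2, cyclin A2, had 916, 1192, 599, 1131 and 1063 in Osmr-/-, against 549, 862 and 1304 in wild type, and 4 of 5 Osmr-/- libraries were above the wild-type median (a log2 fold change of 0.14 ± 0.27 (SE) and an adjusted p of 0.831 by limma). Without wild type 1 it was 0.0052. Cdc25c, the phosphatase that activates CDK1, had 0, 1.18, 0, 10.3 and 42.0 in Osmr-/-, against 4.14, 69.1 and 103 in wild type. Its Osmr-/- libraries 1 to 3 held at most 1 read each, while wild type 6 was near their level. It was tested only because 5 of 6 wild-type libraries reached 10, against 2 of 5 Osmr-/- libraries, and its log2 fold change of -3.47 ± 1.12 (adjusted p 0.149, limma) depends on the pseudocount of 1.

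Cks1b and Cks2 encode the small CDK-binding subunits. Per kilobase of exon they were the most abundant of the 47 in both genotypes, at 3647 and 3214 normalised counts per kilobase in Osmr-/- and 4101 and 2533 in wild type. Their log2 fold changes were -0.16 ± 0.22 for Cks1b, whose reads could be shared with Cks1brt, and 0.48 ± 0.33 for Cks2. All 5 Osmr-/- libraries of Cks2 lay above its wild-type median and the groups overlapped, with a log2 fold change of 0.74 without wild type 3. Cks1b in Osmr-/- lay wholly below wild type among numbers 1 to 3 and wholly above it among numbers 4 to 6. At the other end of the list, Gtse1 had 6.58 per kilobase in Osmr-/- and 10.6 in wild type, and Cdc25c 2.17 and 12.7.

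All 4 genes around the APC lay below 0 (median log2 fold change -1.01). Cdca3 (chr6:124829547-124833701), a trigger of mitotic entry that the APC degrades, had 87.2, 379.6, 99.2, 327 and 229 normalised counts in Osmr-/-, against 221, 608 and 1007 in wild type. Osmr-/- 1 and 3 were the lowest of all libraries, and the other 3 fell within the wild-type range but below its median, with a log2 fold change of -1.52 ± 0.46 (SE) and an adjusted p of 0.133 by limma. Ube2c, the ubiquitin-conjugating enzyme of the APC, had 503, 974, 661, 2546 and 484 in Osmr-/-, against 1077, 1507 and 1943 in wild type. Osmr-/- 5 was the highest of all 11 libraries and the other 4 lay below every wild-type library, with a log2 fold change of -0.84 ± 0.37 (SE) and an adjusted p of 0.252 by limma. Without Osmr-/- 5 the log2 fold change of Ube2c was -1.25.

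The APC activator gene Cdc20 had 81.6, 18.9, 92.8, 261 and 53.7 normalised counts in Osmr-/-, against 56.9, 223 and 308 in wild type. Its groups overlapped, with 2 Osmr-/- libraries below every wild-type library and a log2 fold change of -1.17 ± 0.62 (SE) and an adjusted p of 0.340 by limma. Without Osmr-/- 2 the log2 fold change of Cdc20 was -0.70. G2e3, a ubiquitin ligase of G2 and M phase, had 557, 553, 304, 680.5 and 482 in Osmr-/-, against 412, 555 and 752 in wild type. Only Osmr-/- 3 lay below the wild-type range (a log2 fold change of -0.17 ± 0.26 (SE) and an adjusted p of 0.758 by limma), and without it the log2 fold change was 0.0028. Cdc20 and Ube2c have pseudogenes of at least 90% identity, and Ube2c shares 22.8% of its exonic bases with Tnnc2 on the opposite strand.

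Among the cytokinesis genes, 4 of 5 lay below 0 (median log2 fold change -0.44). Kif23 (chr9:61915905-61946774), the kinesin of the central spindle, had 476, 458, 361, 415 and 206 normalised counts in Osmr-/-, against 532, 580.0 and 808 in wild type. Every Osmr-/- library lay below every wild-type library, with a log2 fold change of -0.72 ± 0.26 (SE) and an adjusted p of 0.181 by limma. Anln, the actin-binding protein of the contractile ring, had 55.5, 134, 20.6, 253 and 125 in Osmr-/-, against 128, 268 and 375 in wild type. All 5 Osmr-/- libraries lay below the wild-type median and 3 below the wild-type range, with a log2 fold change of -1.41 ± 0.57 (SE) and an adjusted p of 0.222 by limma, and -0.91 without Osmr-/- 3.

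Ect2, the exchange factor that activates RhoA at the division plane, went the other way, with 271, 292, 250.0, 511 and 247 normalised counts in Osmr-/-, against 110.0, 209 and 274 in wild type. All 5 Osmr-/- libraries lay above the wild-type median, with overlap and a log2 fold change of 0.67 ± 0.34 (SE) and an adjusted p of 0.312 by limma. Gas2l3, which links actin and microtubules in late mitosis, had 142, 37.8, 121, 253 and 341 in Osmr-/-, against 105, 166 and 475 in wild type. Osmr-/- 2 was the lowest of all libraries and the groups otherwise overlapped (a log2 fold change of -0.44 ± 0.54 (SE) and an adjusted p of 0.703 by limma). Without Osmr-/- 2 the log2 fold change of Gas2l3 was 0.028. The midzone kinesin gene Kif20b had a log2 fold change of -0.30 ± 0.36, and -0.040 without Osmr-/- 1.

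The 6 chromosome genes had the median closest to 0 of the 6 roles, -0.35, with 5 below 0. Mki67, which encodes the proliferation antigen Ki-67, had 913, 1143, 494, 1233 and 633 normalised counts in Osmr-/-, against 918, 1369 and 2327 in wild type. Every Osmr-/- library lay below the wild-type median and 3 below the wild-type range, with a log2 fold change of -0.75 ± 0.30 (SE) and an adjusted p of 0.219 by limma. Hmgb2, a DNA-bending chromatin protein, had 5348, 5474, 3029, 5254 and 1532 in Osmr-/-, against 5057, 6390.0 and 8781 in wild type. Osmr-/- 3 and 6 lay far below the others, and the remaining Osmr-/- libraries were level with wild type 4 to 6 (a log2 fold change of -0.80 ± 0.32 (SE) and an adjusted p of 0.223 by limma). Without Osmr-/- 6 it was -0.48. Hmgb2 has processed pseudogenes of up to 99.7% identity that could share its reads.

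Top2a, the topoisomerase that untangles sister chromatids, did not separate the genotypes. It had 1381, 1314, 1666, 1969 and 1210.0 normalised counts in Osmr-/-, against 824, 1679 and 2040.1 in wild type, with a log2 fold change of 0.05 ± 0.27 (SE) and an adjusted p of 0.947 by limma. Its lowest libraries were wild type 1 and 2, and its sign was not stable across the alternatives run. Cdca2, which brings protein phosphatase 1 to chromosomes, had 56.6, 67.4, 34.8, 120.4 and 86.8 in Osmr-/-, against 64.5, 95.9 and 219 in wild type. The groups overlapped, with 2 Osmr-/- libraries below every wild-type library and a log2 fold change of -0.61 ± 0.47 (SE) and an adjusted p of 0.511 by limma, and -0.38 without Osmr-/- 3. The condensin subunit genes Smc4 (-0.09 ± 0.21) and Ncapd2 (-0.08 ± 0.31) were near 0.

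**Figure D2:**
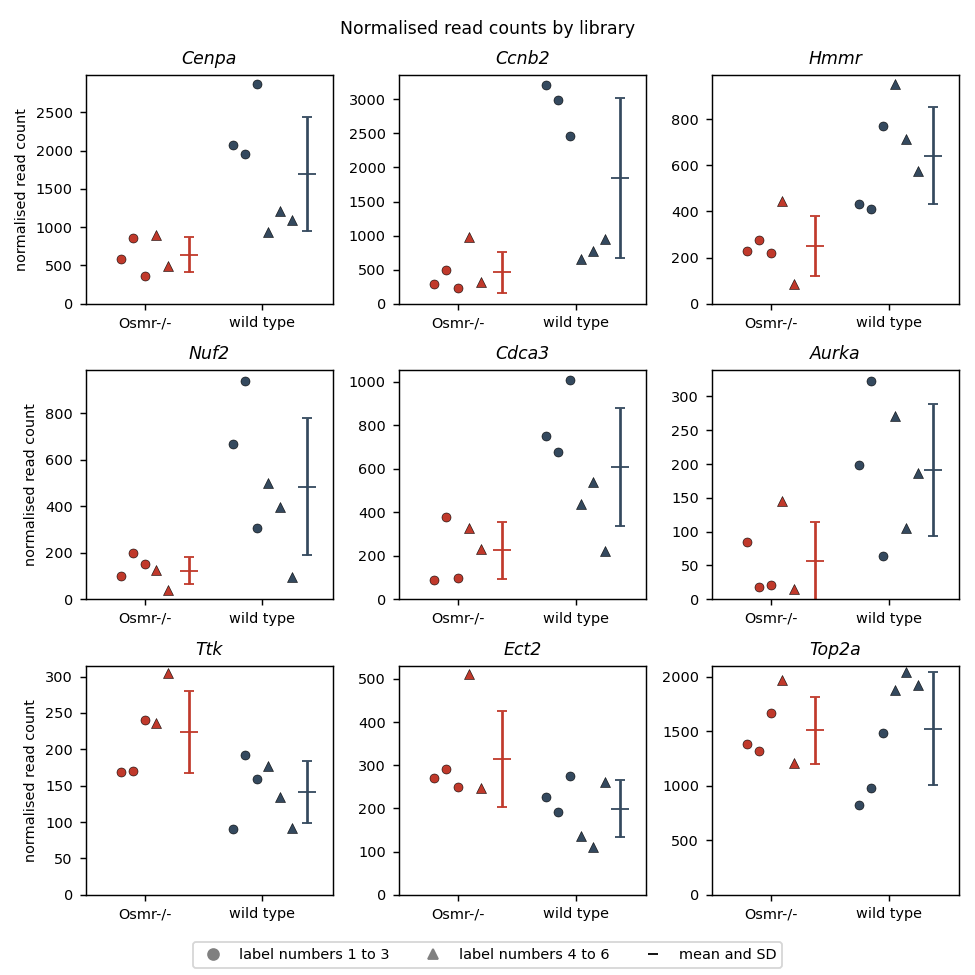
Normalised read counts of 9 of the genes in each library, Osmr-/- (red) left of wild type (blue), with circles for libraries numbered 1 to 3 and triangles for those numbered 4 to 6; the bar is the mean ± SD (n = 5 and 6), and the lower bar of Aurka in Osmr-/- is cut off at 0. All Osmr-/- points of Cenpa lie below the lowest wild-type point at 939, the wild-type circles of Ccnb2 lie at 2458 to 3212, and Ttk and Ect2 have higher means in Osmr-/-.

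The log2 fold change was lower in the libraries numbered 1 to 3 than in those numbered 4 to 6 for 36 of the 47 genes, and for 6874 of all 13358 genes tested. Within numbers 1 to 3 the median was -1.10, and 22 genes had an unadjusted limma p under 0.05 as lower and 0 as higher, where all genes gave 13.0% and 8.92%. In that set 22 genes (46.8%) had every Osmr-/- library below every wild-type library and 0 the reverse, against 15.5% and 13.5% of all genes. Within numbers 4 to 6 the median was -0.37, with 5 genes lower (Cenpf, Nuf2, Hmmr, Kif23 and Mki67) and Ect2 higher at an unadjusted p under 0.05, against 5.94% and 4.42%. There 8 genes (17.0%) lay wholly lower and 3 (6.38%; Ttk, Ccna2 and Cks1b) wholly higher, against 13.7% and 14.4% of all genes, so the first share is near that of all genes. Cenpa, Hmmr and Kif23 were wholly lower in both sets, and Cks1b wholly lower in the first and wholly higher in the second.

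The difference between the sets was tested as a genotype by number set term in limma. None of the 47 passed after adjustment over all genes, and 10 (21.3%) had an unadjusted p under 0.05 with a term above 0, against 6.14% of all genes. Ccnb2 had 291, 500.2 and 231 normalised counts in Osmr-/- 1 to 3, against 3212, 2992 and 2458 in wild type 1 to 3. It had 976 and 311 in Osmr-/- 5 and 6, against 655, 781 and 943 in wild type 4 to 6. The genotypes were far apart in the first set and overlapped in the second, with log2 fold changes of -3.15 and -0.51 and a term of 2.64 ± 0.60 (SE) at an adjusted p of 0.232. Nusap1 had 246, 387 and 456 in Osmr-/- 1 to 3, against 1593, 1309 and 1000.4 in wild type 1 to 3, and 843 and 704 in Osmr-/- 5 and 6, against 659.7, 593 and 909 in wild type 4 to 6. Its log2 fold changes were -1.86 and 0.12, with a term of 1.98 ± 0.45 (SE) and the same adjusted p.

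The cyclin group had the widest gap between the sets, where the median log2 fold change was -1.20 among libraries 1 to 3 and 0.32 among libraries 4 to 6. Cdk1 was at -1.29 and 0.17, Ccnb1 at -1.20 and 0.43, and Cdca3 of the APC group at -2.42 and -0.45. Other genes had a like log2 fold change in both sets, among them Nuf2 (-1.99 and -1.90), Aurka (-2.30 and -1.84) and Hmgb2 (-0.88 and -0.85). Within numbers 4 to 6, though, the genotypes overlapped for each of these genes. Hmgb2 there had 5254 and 1532 normalised counts in Osmr-/- 5 and 6, against 5186, 5057 and 5057 in wild type 4 to 6. Chromosome genes had medians of -0.23 and -0.43. Across genotypes, Cenpf, Hjurp and Kif11 were higher in numbers 4 to 6 than in numbers 1 to 3 (3 genes, with 2.61% of all genes called higher), and 0 were lower (4.69% of all genes).

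**Figure D3:**
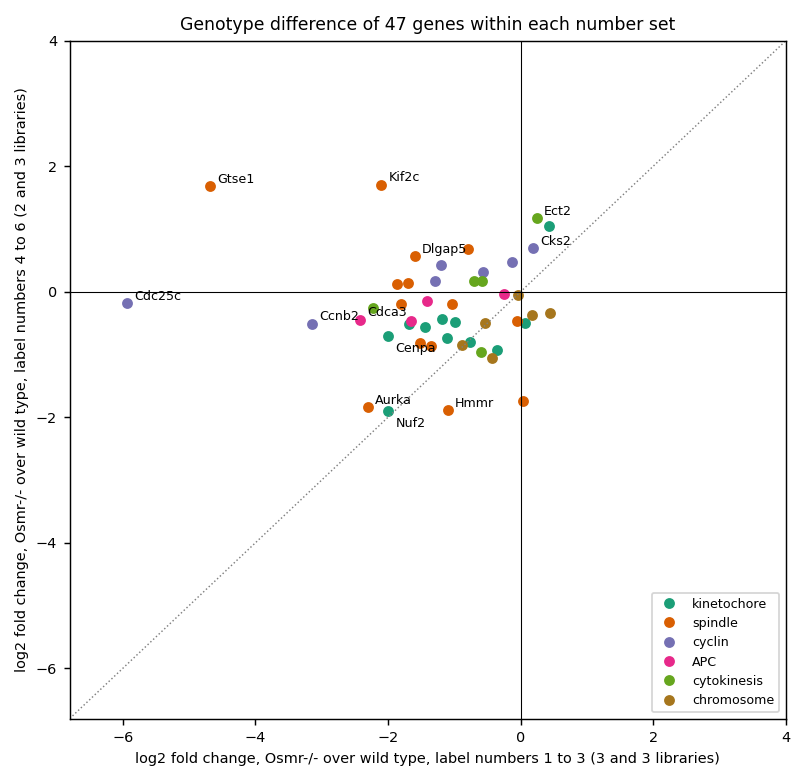
Log2 fold change (Osmr-/- over wild type) of each of the 47 genes in the libraries numbered 1 to 3 (horizontal axis, 3 Osmr-/- and 3 wild-type libraries) and 4 to 6 (vertical axis, 2 and 3), coloured by role, with equal values on the dotted line. In numbers 1 to 3 there are 40 points left of 0, in numbers 4 to 6 there are 32 below 0, and 36 lie above the dotted line. Of all 13358 genes tested, 7035 lay below 0 in numbers 1 to 3 and 6673 in numbers 4 to 6.

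Averaged over the 47 genes, the log2 level was 7.99 ± 0.51 in Osmr-/- and 8.78 ± 0.17 in wild type (SD, n = 5 and 6 libraries). By library it was 7.48, 7.94, 7.72, 8.83 and 7.98 in Osmr-/- 1, 2, 3, 5 and 6, against a lowest, median and highest of 8.50, 8.81 and 8.96 in wild type. Osmr-/- 5 lay within the wild-type range and the other 4 lay below it. The 47 genes took 0.262% ± 0.066 of the reads in Osmr-/- and 0.395% ± 0.019 in wild type. Osmr-/- libraries held the highest value of 10 genes, 7 of them in Osmr-/- 5, and wild-type libraries the highest of 37. The lowest value was in Osmr-/- for 35 genes. Without Osmr-/- 5 the median log2 fold change was -0.92 and 43 genes lay below 0.

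Markers of red cell precursors were also lower in Osmr-/-. Of 26 erythroid markers tested 25 lay below 0 (median log2 fold change -2.10), against 53.2% of all genes. Their summed count ran from 15168 to 21793 in Osmr-/- and from 23745 to 67599 in wild type, where numbers 1 to 3 had 60861 to 67599 and numbers 4 to 6 had 23745 to 25487. Within numbers 4 to 6 the sums still did not overlap between genotypes. Most of the sum was the carbonic anhydrase gene Car2. It averaged 11416 in Osmr-/- and 26493 in wild type, where the sum averaged 17275 and 44289. The mean log2 level of the 47 genes was 8.81 to 8.96 in wild type 1 to 3 and 8.50 to 8.80 in wild type 4 to 6. Osmr-/- 5, at the wild-type mitotic level, had an erythroid sum of 17590, within the Osmr-/- range. Of the erythroid markers, limma with the number sets called 11 lower (42.3%, against 1.53% of all genes) and 1 higher (0.996% of all genes). DESeq2 called 11 of 27 tested lower and 1 higher, against 2.83% and 1.53% of all genes. Some markers, among them Kel (mean 5.31 in Osmr-/-, 58.8 in wild type) and Tspo2 (10.9 and 141), were tested only because of their level in wild type. Such markers could hardly come out higher, which bears on these counts and on the 25 below 0. Limma on genotype alone called 1 lower, the blood group antigen gene Rhd, with 8.75 ± 17.3 normalised counts in Osmr-/- and 273 ± 197 in wild type (adjusted p 0.0454). Rhd reached 10 in 1 of 5 Osmr-/- and 6 of 6 wild-type libraries, so it was tested only because of its level in wild type. It was called with 3 of the 11 libraries left out in turn (Osmr-/- 1 or 5 or wild type 6) and missed with each of the other 8, where the adjusted p reached 0.157. The heme synthesis gene Alad had a log2 fold change of -2.51 (adjusted p 0.0640) and the globin gene Hbb-bt 2.02 (adjusted p 0.0640). Alas2 and Slc4a1 had no read in 8 of 11 libraries, and Klf1 had none in 1. Osmr-/- 3 stood apart in granulocyte and monocyte markers, with a sum of 32904 against 10566 to 11545 in the other Osmr-/- libraries and 9011 to 17315 in wild type, and without it the mitotic median was -0.69. The part of these markers, and of the number sets, in the mitotic differences was not tested.

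**Figure D4:**
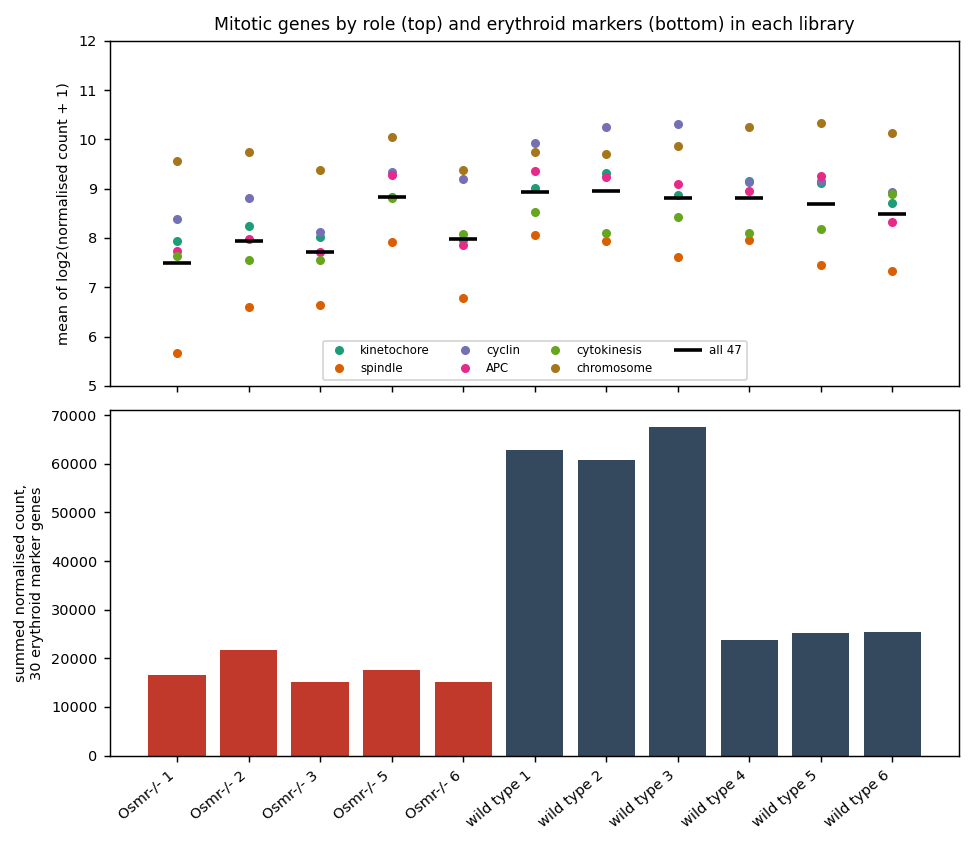
Top, the mean log2(normalised count + 1) of the genes of each role and of all 47 (black bar) in each library; bottom, the summed normalised count of 30 erythroid marker genes in the same libraries, Osmr-/- left of wild type. The black bars lie at 7.48 to 8.83 in Osmr-/- and at 8.50 to 8.96 in wild type, and the erythroid sums are highest, 60861 to 67599, in wild type 1 to 3. On average Car2 makes up most of the sum in both genotypes.

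Of 129 other genes of the same machinery, in 6 lists, 128 were tested, 82 lay below 0, the median log2 fold change was -0.23 and 0 passed limma's threshold in either direction, with 18 lower and 10 higher at an unadjusted p under 0.05. Those are 14.1% and 7.81%, near the 10.5% and 7.5% of all genes. Among 36 further kinetochore and checkpoint genes 26 lay below 0, with a median of -0.39 over all libraries, -1.08 within numbers 1 to 3 and 0.24 within numbers 4 to 6. Ska1, a microtubule-binding kinetochore gene, averaged 76.0 ± 67.1 in Osmr-/- and 230.0 ± 79.9 in wild type (-2.42 ± 0.83), and the checkpoint gene Bub1b 91.1 ± 48.8 and 188 ± 47.1 (-1.19 ± 0.43). Among 25 further spindle and cytokinesis genes 21 lay below 0, with a median of -0.63, led by the spindle genes Haus8 (-1.88 ± 0.56) and Psrc1 (-2.47 ± 0.80). The lowest Osmr-/- counts of Ska1 and Psrc1 were 2.27 and 1.03, so their log2 fold changes depend on the pseudocount of 1.

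APC subunits and inhibitors were nearly even, with 10 of 17 below 0 and a median of -0.09. Ube2s, the APC's chain-elongating enzyme, averaged 418 ± 169 in Osmr-/- and 873 ± 194 in wild type (-1.14 ± 0.31, adjusted p 0.113, limma), and the subunit gene Anapc7 had -1.01 ± 0.41. Cohesin and separase genes had 5 of 14 below 0 and a median of 0.08, with the cohesin genes Smc3 at -0.61 ± 0.25 and Stag2 at 0.48 ± 0.19. Further condensin subunits had 4 of 6 below 0, with Ncapd3 at 0.65 ± 0.28 and Ncapg2 at 0.78 ± 0.37. Of 30 entry kinases and regulators of mitotic transcription 16 lay below 0, with a median of -0.11. In that list Ensa, an inhibitor of the phosphatase PP2A, had -0.95 ± 0.25, and E2f5, a repressor-type E2F gene, averaged 1758 ± 732 in Osmr-/- and 643 ± 465 in wild type. E2f5 had a log2 fold change of 1.59 ± 0.41 (adjusted p 0.104, limma), which passed in the fit with the number sets (adjusted p 0.0406).

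Genes of S phase had 36 of 56 below 0 and a median of -0.09, with 0 called. The lowest p belonged to the replication genes Rfc2 (-1.12 ± 0.29), Mcm10 (-2.43 ± 0.67) and Tk1 (-1.55 ± 0.44), and Pold3 was lower in the fit with the number sets (adjusted p 0.0490, limma). Mcm10 fell to 2.27 normalised counts in Osmr-/-, so its log2 fold change depends on the pseudocount of 1. CDK inhibitors and RB family genes, which hold cells out of division, had 5 of 8 tested below 0 and a median of -1.21. The inhibitor genes Cdkn2c and Cdkn2d had -1.50 ± 0.44 and -1.31 ± 0.44. The RB family gene Rbl1 averaged 1203 ± 232 in Osmr-/- and 734 ± 78.8 in wild type, with 0.70 ± 0.20 (adjusted p 0.127, limma).

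Reads of several of these genes are uncertain beyond the spread shown. Transcripts of Ccnb1, Cdc20, Cenpe, Hmgb2, Kif11, Ndc80, Plk1 and Ube2c match pseudogenes at 90% identity or more over at least 300 bases, Kif2c matches the noncoding Gm4961, and part of Hmmr matches many unrelated transcripts. Exons of Cdca8, Plk1, Nek2, Tacc3, Nusap1, Ckap2l, Ccna2, Cdc25c, Cdc20 and Ube2c overlap a gene on the other strand, and no source used here states whether counting used strand.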

How the data were processed

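Polyadenylated RNA of 1000 sorted cells per mouse was made into cDNA with a SMART-Seq v4 kit, per the labels' protocols. Per the submitters' processing notes the tools were Trimmomatic 0.36.6, FastQC 0.72, HISAT2 2.1.0 with the mm10 build, HTSeq 0.9.1 and DESeq2 2.11.40.6. No source used here states the annotation or strand setting. The authors deposited DESeq2-normalised read counts (a signal, counts divided by size factors), rlog and VST values on a log2 scale, and a comparison table with log2 fold changes, Wald scores, p-values and adjusted p-values. The fold changes in the authors' deposited table run wild type over Osmr-/- and were turned in sign here. Each deposited normalised count was a whole multiple of 1 read (100% of values, within 1.4e-09), and reads were recovered from these steps.

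The 13358 of 43279 genes that reached 10 normalised counts in 5 or more libraries were tested on log2(normalised count + 1) with limma 3.58.1 (lmFit, eBayes with trend) in R 4.3.3, with genotype alone in the model. P-values are two-sided and adjusted by Benjamini-Hochberg over all genes tested, with 0.05 as the threshold. Fold changes are on the log2(normalised count + 1) scale, where libraries near 0 weigh heavily for low genes (Gtse1 had -2.01 by limma and -0.68 by DESeq2). The count tests on the recovered reads, edgeR 4.0.16 (quasi-likelihood) and DESeq2 1.42.0, called 1 and 440 genes lower and 1 and 238 higher over all genes. The fits were tested on simulated data.

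The 47 genes, the other lists and the number sets were chosen with earlier results of these data known. Library values are given, in each role, for the 3 genes of lowest p and the 1 of highest p, and for Ttk. Other lists are represented by their 2 or 3 genes of lowest p. Positions and exon lengths are from the GENCODE annotation of GRCm38, the build of mm10, and promoters are from the RefSeq table of GRCm38.p6. Same-numbered libraries of the 2 genotypes were checked for pairing, and the alternatives tried are given with the sensitivity of the results.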

Additional observations from a re-analysis of the deposited data

Results flagged for a closer look

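Among the 47 genes, the highest or lowest library was compared with its nearest neighbour in each genotype, over 94 groups of 5 or 6 libraries. In 6 of them the gap was wide against the whole range of the group (Dixon's criterion at 95%), a rate close to the 1 in 20 groups that chance flags. Osmr-/- 5 held 3 of these values. Tpx2 had 777 normalised counts there, with 188 in the next Osmr-/- library, Ube2c had 2546 with 974 next, and Ect2 had 511 with 292 next. Osmr-/- 6 had 42.0 of Cdc25c, with 10.3 next. In wild type, library 3 had 3897 of Cks2, with 1925 in the next library, and library 1 had 808 of Kif23, with 621 next. None of the 47 passed limma's test of a different genotype effect in the 2 number sets.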

How the results depend on the processing

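Across 26 alternatives and 1220 comparisons of a gene with an alternative, the sign of a log2 fold change turned 38 times, for 18 genes, and 29 genes kept theirs. The 0 mitotic genes called by limma stayed at 0 under every alternative except DESeq2 (5 lower), the number set covariate (3 lower) and leaving out wild type 6 (1 lower, Nuf2, adjusted p 0.0389). Leaving out 1 library at a time gave 14 to 22 genes lower and 0 to 2 higher at an unadjusted p under 0.05, 39 to 43 genes below 0, a median of -0.92 to -0.69, 0 to 1 gene called lower, and 0 to 92 genes lower and 0 to 30 higher over all genes. With the number sets the calls among the mitotic genes ran from 0 to 10 and with DESeq2 from 3 to 13, alternatives chosen after seeing the data. For these leave-outs the calls over all genes were not counted.

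Over all genes limma called 2 lower and 1 higher. The calls lower and higher were 440 and 238 by DESeq2, 204 and 133 with the number set covariate, 51 and 18 on the authors' rlog values, 49 and 17 on their VST values, 42 and 14 after quantile scaling, 42 and 13 with a pseudocount of 10, and 0 and 0 with no filter, a filter of 50, numbers 1 to 3 alone, numbers 4 to 6 alone or the replicate block. Array weights, a pseudocount of 0.5 and edgeR each called 1 lower. Among the mitotic genes alone, those higher at an unadjusted p under 0.05 numbered 2 by DESeq2 and 1 with array weights, no filter, quantile scaling or numbers 4 to 6 alone, where 5 were lower. The median of the mitotic genes was -0.42 on rlog values, -1.10 among libraries 1 to 3 and -0.37 among libraries 4 to 6. The cause was not tested.

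Signs turned for Kif2c (0.19 by DESeq2, 0.19 by edgeR, 0.033 on rlog values), Top2a (-0.012 by DESeq2, -0.025 by edgeR) and Tacc3 (0.0097 with array weights, 0.023 after quantile scaling). In numbers 1 to 3 they turned for Hjurp (0.066), Plk1 (0.040), Ccna2 (-0.13) and Smc4 (0.18). In numbers 4 to 6 they turned for Nek2 (0.14), Kif2c (1.70), Tacc3 (0.69), Nusap1 (0.12), Dlgap5 (0.56), Gtse1 (1.68), Ccnb1 (0.43), Cdk1 (0.17), Cks1b (0.32), Kif20b (0.17), Gas2l3 (0.18) and Top2a (-0.33). Leave-outs of 1 library ranged over 0 for Nek2 (-1.45 to 0.033), Kif2c (-1.10 to 0.82), Ncapd2 (-0.23 to 0.069), Tacc3 (-0.33 to 0.18), Gas2l3 (-0.76 to 0.028), G2e3 (-0.29 to 0.0028) and Top2a (-0.11 to 0.15).

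The labels share numbers between genotypes, but same-numbered libraries did not deviate together (correlations of 0.020, 0.099, 0.047, 0.082 and 0.091 for numbers 1, 2, 3, 5 and 6, all under 0.1), and 2 of 5 matched their own number best. With the replicate block 0 mitotic genes were called, 21 were lower at an unadjusted p under 0.05, 40 lay below 0, the median was -0.72, and Tacc3 (0.020) and Ncapd2 (0.029) turned sign. Wild type 4 has no Osmr-/- library of its number, so the block gave the same log2 fold changes as leaving out wild type 4. The turned signs of Tacc3 and Ncapd2 are counted under both settings. Depth limits Cdc25c, Gtse1, Kif2c and Nek2, where 3 reads correspond to 2.93 to 3.87 normalised counts in Osmr-/- and 1.56 to 3.10 in wild type.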
